A study of Mus musculus with 2 samples.

Results

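Mesenchymal cells marked by Osr1, a zinc-finger transcription factor of embryonic connective tissue, were examined in dissected mouse cochleae. A cell barcode was taken as a member when it held at least 1 UMI of Osr1 and a UMI of at least 1 of Aldh1a2, Kcnk2 and Arhgap20. It also had no Epcam UMI and fewer than 5 UMIs of the cycle genes Mki67, Top2a and Cenpf. Barcodes were first required to hold 1000 UMIs and 500 detected genes or more, with no more than 10% of UMIs from mitochondrial genes, and 856 of the 15813 that passed met the rule. They numbered 275 of 6440 in the wild-type library, 4.27% (exact binomial 95% interval 3.79 to 4.79), and 581 of 9373 in the mutant library, 6.20% (5.72 to 6.71).

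The study dissociated cochleae at E16.5 for droplet single-cell RNA sequencing, with 1 wild-type (WT) library and 1 Emx2Cre;Ptch1f/f library, each from 8 pooled cochleae of a mixed 129/SvEv and C57BL/6N background. It asks how Ptch1 and Hedgehog signalling bear on marginal cells and the stria vascularis. Cre follows Emx2, so deletion is limited to cells that expressed Emx2 or descend from them. The WT embryos are labelled wild type, with no Cre-only or floxed-only library. With 1 library per genotype no test was made, and every interval covers counting error only.

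Retinoic acid is made from vitamin A by retinol and retinaldehyde dehydrogenases, and Aldh1a2 encodes the main retinaldehyde dehydrogenase of embryonic mesenchyme. The acid is bound in the cell by Crabp proteins, acts through RAR and RXR nuclear receptors and is broken down by Cyp26 enzymes. In the developing ear, the mesenchyme around the otic epithelium forms the cartilage of the otic capsule, the fibrocytes of the lateral wall and the loose tissue lining the fluid spaces. Kcnk2 encodes a mechanosensitive background potassium channel, Arhgap20 a GTPase-activating protein, and Mme the membrane peptidase neprilysin.

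The WT library held 6500 barcodes and 61130806 UMIs, and the mutant library 12326 barcodes and 100135532 UMIs. The shallowest barcode had 3352 UMIs in the WT matrix and 500 in the mutant matrix. The members' median was 8123 UMIs in WT and 9655 in the mutant, above the 6547 and 7646.5 of other mesenchyme. Median mitochondrial shares of members were 2.24% and 4.14%. When every barcode was thinned to 2000 UMIs, leaving out the 1292 mutant barcodes below that, 1.40% (90 of 6440) and 1.66% (134 of 8081) met the rule, and their intervals of 1.13 to 1.72 and 1.39 to 1.96 overlapped. With the lowest WT depth as the floor in both libraries, the shares were 4.27% and 7.57%. The libraries shared 18 passing barcode sequences, among them those of 2 WT members and 1 mutant member. A background was read in 2 clusters of white blood cell genes, 1 led by S100a9, S100a8 and Lyz2 and 1 by Cma1, Tpsb2 and Cpa3. In these blood-cell clusters an Osr1 UMI was seen in 2.30% of WT and 1.86% of mutant barcodes before thinning, against 9.0% and 11.3% of other mesenchyme. Those blood-cell shares were taken over all passing barcodes. In other classes Osr1 was counted only in barcodes that passed the Epcam and cycle limits. Under these limits the blood-cell counts were 2 of 62 in WT and 3 of 165 in the mutant. An Osr1 UMI was in 20 of 261 WT neuronal barcodes (7.66%, 4.74 to 11.6) and 3 of 74 mutant ones (4.05%). The WT interval includes the 9.0% of other mesenchyme. For glia the counts were 5 of 333 and 10 of 336, and for endothelium 2 of 72 and 3 of 83. Whether these UMIs are background was not tested.

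The rule drew mainly on Osr1 (chr12:9570116-9581500, mm10) with Arhgap20 (chr9:51765337-51853856), and less on Kcnk2 (chr1:189207930-189402273). Arhgap20 was detected in 87.3% of WT and 82.4% of mutant members, Kcnk2 in 37.5% and 36.5%, and Aldh1a2 in 33.5% and 28.4%. Arhgap20 was the only one of the 3 companions in 128 WT and 291 mutant members, and all 3 were found in 42 and 67. The label's Aldh1a2 therefore marked a minority of the members, and the population is called here by its rule. Osr1 stood at a single UMI in 106 WT and 254 mutant members, at 2 UMIs in 61 and 125, and at 3 or more in 108 and 202. Just outside the rule were 228 WT and 465 mutant barcodes with Osr1 but none of the companions, and 57 and 86 with at least 2 companions but no Osr1. At the cycle limit, 8 WT and 5 mutant members held 4 UMIs of the 3 cycle genes, and 4 and 5 barcodes were left out at 5.

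Mme (chr3:63241537-63386030) was the marker of the label that the rule did not use. A Mme UMI was present in 90.9% of WT and 93.6% of mutant members. At 2000 UMIs per barcode the shares were 65.1% and 66.3%, against 27.8% and 41.4% in other mesenchyme. In the blood-cell clusters they were 3.45% (3 of 87) and 3.19% (6 of 188). Before thinning and within the Epcam and cycle limits, a Mme UMI was in 59 of 261 WT and 7 of 74 mutant neuronal barcodes. For endothelium the Mme counts were 18 of 72 and 9 of 83, and for glia 20 of 333 and 26 of 336. All 12 general mesenchyme markers were detected in members of both libraries. Their summed level was 3462 UMIs per 1000000 UMIs of the members (CPM) in WT and 3860 CPM in the mutant, beside 4956 and 3449 CPM in other mesenchyme. Other mesenchyme means the 2188 WT and 3918 mutant barcodes of mesenchymal clusters that passed the Epcam and cycle limits and were not members.

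Clustering without the 8 genes of the rule placed about equal parts of the members in and out of 1 cluster. This main cluster held 133 of 275 WT members (48.4%, 42.3 to 54.4) and 292 of 581 mutant members (50.3%, 46.1 to 54.4). Its leading genes were Kcnk2, Aldh1a2, Osr1, Wnt6, Medag, Arhgap20, Osr2, AI593442, Tmem108 and Aard. The 4 genes by which the members were chosen are among them, and members made up about equal parts of the cluster with other barcodes. The next 2 clusters, led among others by Cdh6 and Mme, held 52 and 40 WT members and 123 and 68 mutant members. A cluster led by Penk and Col8a1 held 15 and 38. In all, 259 WT and 568 mutant members lay in 10 mesenchymal clusters. Another 16 WT and 13 mutant members lay in clusters with markers of other classes, among them 5 and 2 in a neuronal, 2 and 2 in the cluster led by S100a9 and 2 and 7 in a glial cluster. The erythroid cluster held 2 WT members, and a cluster of mixed markers held 4.

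The more genes of the rule a barcode carried, the more often it lay in the main cluster. Of members with all 3 companions, 92.9% (80.5 to 98.5) in WT and 91.0% (81.5 to 96.6) in the mutant were there. With 2 companions the shares were 75.0% and 77.3%, and with 1 companion 23.6% and 32.7%. Members with 3 or more Osr1 UMIs were in the main cluster in 70.4% and 69.8% of cases, and those with a single Osr1 UMI in 27.4% and 37.0%. Median UMIs moved with these patterns, from 7092 in WT members with 1 companion to 10670.5 in those with 3. Their part in the shares was not tested. Outside the rule, Osr1 without a companion was in the main cluster in 7.46% and 7.53% of barcodes, and 2 or 3 companions without Osr1 in 38.6% and 46.5%. The main cluster itself held 262 WT and 555 mutant barcodes, of which 50.8% and 52.6% were members.

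**Figure D1:**
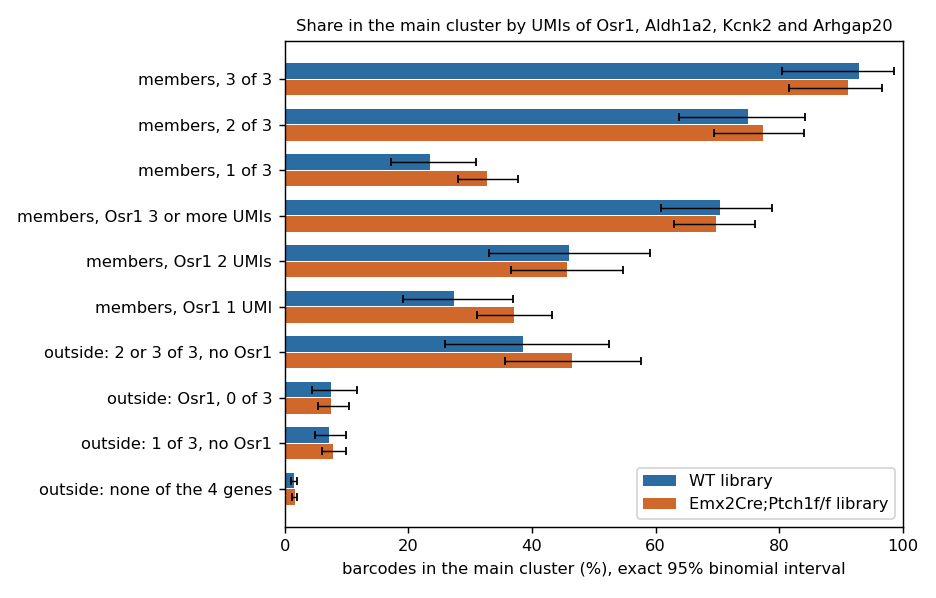
Share of barcodes (%, horizontal axis) that lay in the main cluster, by how many of Aldh1a2, Kcnk2 and Arhgap20 ("of 3") or how many Osr1 UMIs they held, for members and for barcodes outside the rule. Bars are the WT (blue) and Emx2Cre;Ptch1f/f (orange) libraries with exact 95% binomial intervals, and the shares run from over 90% with all 3 companions to under 2% with none of the 4 genes.

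Members were compared with other mesenchyme over 10249 genes with at least 50 member UMIs in both libraries together, leaving out the rule's own genes. The measure was the log2 ratio of CPM + 1 within each library. By a 2-fold limit met in both libraries, 150 genes (1.46%) were higher and 60 (0.585%) lower in members. Since cells were chosen by their genes, these are descriptions and no test of a difference. The minimum of member UMIs also removes genes that are nearly absent from members, so the lower genes are undercounted. The median ratio of all genes was -0.01 in WT and 0.03 in the mutant.

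Crabp2 and Stra6, which carry and import retinoids, were higher in members. Aldh1a2 (chr9:71215789-71296243, mm10) had to be higher because the rule selected on it, and it stood at 125 CPM (112 to 140) in WT and 79.6 CPM (72.7 to 87.1) in mutant members. Crabp2, which carries retinoic acid to its receptors, was at 269 CPM (249 to 290) in WT members against 72.9 in other mesenchyme, and at 202 (191 to 214) against 62.9 in the mutant. The vitamin A importer Stra6 was low in level but also higher, at 10.8 CPM (7.09 to 15.7) against 2.11 in WT and 8.46 (6.30 to 11.1) against 1.74 in the mutant. For Crabp2 and Stra6 the members' intervals lay above the level of other mesenchyme in both libraries.

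Of 5 tested genes for retinoid uptake and binding, 2 (Stra6 and Crabp2) were 2-fold higher in both libraries and none lower. None of the 5 tested genes for retinoid dehydrogenases and reductases passed the limit, and neither did any of 5 receptors. The shares over all tested genes were 1.46% higher and 0.585% lower. The receptor gene Rarb stood at 113 against 77.0 CPM in WT and 94.7 against 84.1 in the mutant. The 3 breakdown enzymes were too low to test, with 5 WT and 10 mutant UMIs of Cyp26b1 in all members. On a list of known retinoic acid targets, 4 of 10 tested genes were higher (Stra6, Crabp2, Nr2f1 and Nr2f2) and none lower, with medians of 0.83 in WT and 0.86 in the mutant. Of these 4, 2 are also on the uptake list.

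The nuclear receptor Nr2f2, a regulator of mesenchymal and venous fate, was at 391 CPM (367 to 417) in WT members against 115 in other mesenchyme, and at 361 (346 to 376) against 135 in the mutant. Its relative Nr2f1 was at 245 against 88.1 CPM and at 188 against 86.5. Among 35 tested transcription factors of mesenchyme, 2 were 2-fold higher in both libraries and 1 was lower. The shares of all tested genes were 1.46% and 0.585%. Osr2, the paralogue of Osr1, was at 15.9 CPM in WT and 16.9 in mutant members against 1.92 and 3.17. Gata6, a factor of mesodermal tissues, was at 6.38 and 7.47 CPM against 1.60 and 1.84. Twist2 was the lower one, at 15.5 and 16.3 CPM against 39.4 and 34.2, and its mutant log2 ratio was -0.98 without members outside mesenchymal clusters. The otic mesenchyme factors Tbx18 and Pou3f4 were close to other mesenchyme, Tbx18 at 423 against 388 CPM and Pou3f4 at 456 against 501 CPM in WT.

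Among all genes, the adaptor gene Fyb had the highest ratio by the rule for named genes. Fyb, known from T cells and myeloid cells, was at 61.4 CPM (52.1 to 71.9) in WT members against 3.52 and at 51.3 (45.7 to 57.3) against 4.06 in the mutant, which is 17.4 and 12.6 times. Without the members outside mesenchymal clusters the log2 ratios were 3.79 and 3.34, beside 3.79 and 3.37 with them. In those mesenchymal-cluster members the 8 macrophage markers summed to 11.5 CPM in WT and 13.1 in the mutant, beside 15.8 and 17.1 in other mesenchyme. Dab2, an endocytic adaptor also known from macrophages, was at 357 CPM (334 to 382) against 69.4 and at 349 (334 to 364) against 66.6. A Fyb UMI was found in 87.4% of WT and 78.1% of mutant barcodes of the blood-cell clusters before thinning, and a Dab2 UMI in 74.7% and 55.8%, so those clusters give no background for either gene. The shares in members were 20.7% and 20.3% for Fyb and 73.8% and 74.9% for Dab2.

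On the list for insulin-like growth factors, 1 of 10 tested genes was higher and none lower. Igfbp3, a carrier of these factors, was at 42.2 against 5.44 CPM in WT and 40.3 against 4.40 in the mutant. The Wnt ligand Wnt6 was at 78.1 CPM (67.6 to 89.8) against 13.2 in WT and 40.7 (35.7 to 46.1) against 5.91 in the mutant. Of 10 tested Wnt pathway genes, Wnt6 and Rspo1 were the 2 that were higher and none was lower. The Wnt readout Axin2 was at 95.2 against 90.9 CPM in WT and 57.7 against 62.4 in the mutant. Of 6 Wnt antagonists, Sostdc1 alone passed the limit, at 23.5 against 3.71 and 14.9 against 2.42 CPM. The counts of these lists stand beside 1.46% higher and 0.585% lower over all tested genes.

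Of 24 tested genes of BMP and TGF-beta signalling, 1 was higher and 3 were lower. The ligand Bmp7 was at 112 CPM (99.6 to 126) in WT members against 31.1 and at 133 (124 to 142) against 41.0 in the mutant. The ligand Gdf10, the activin antagonist Fst and the BMP-responsive Id2 were lower. Fst was at 18.7 against 78.1 CPM in WT and 14.6 against 49.1 in the mutant. Id2 was at 64.2 against 163 CPM and at 58.1 against 172. The semaphorin Sema3c was the 1 of 21 tested guidance and chemokine genes that was higher, at 17.9 against 5.05 and 26.5 against 5.87 CPM. No gene of 11 tested on the FGF list passed in either direction, which is close to the 1.46% higher and 0.585% lower of all tested genes.

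The remaining genes named by rule for high ratios were Medag, Tmem108, Cd34, Cacna2d3, Nupr1, Clec1a, Ppp1r1a and 4 neuronal genes. The first 7 stood between 4.53 and 9.5 times other mesenchyme in the 2 libraries. Cd34, a surface sialomucin of fibroblast progenitors and vessels, was at 44.6 against 8.19 CPM in WT and 65.5 against 12.3 in the mutant. The C-type lectin receptor Clec1a was at 29.5 against 4.61 and 32.5 against 6.38 CPM. On a list of genes shared by fibroblasts of many adult tissues, Cd34 and the peptidase Dpp4 were higher and Col14a1 lower out of 8 tested. All tested genes gave 1.46% higher and 0.585% lower. The 4 neuronal genes were Nefl, Nefm, Sncg and Stmn2. For Sncg, 98 of 108 WT UMIs and 119 of 133 mutant UMIs lay outside mesenchymal clusters, and without these members its log2 ratios went from 3.31 and 2.62 to 0.24 and -0.14. For Stmn2 they went from 2.93 and 2.44 to -0.35 and 0.62. For Nefl, 109 of 148 WT UMIs but 127 of 331 mutant UMIs lay outside mesenchymal clusters, and for Nefm 219 of 309 and 244 of 508. Without them Nefl stood at 1.41 and 2.35, and Nefm at 1.82 and 1.57. The annotated spans of these 2 genes overlap, and whether this affects their counts was not tested.

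**Figure D2:**
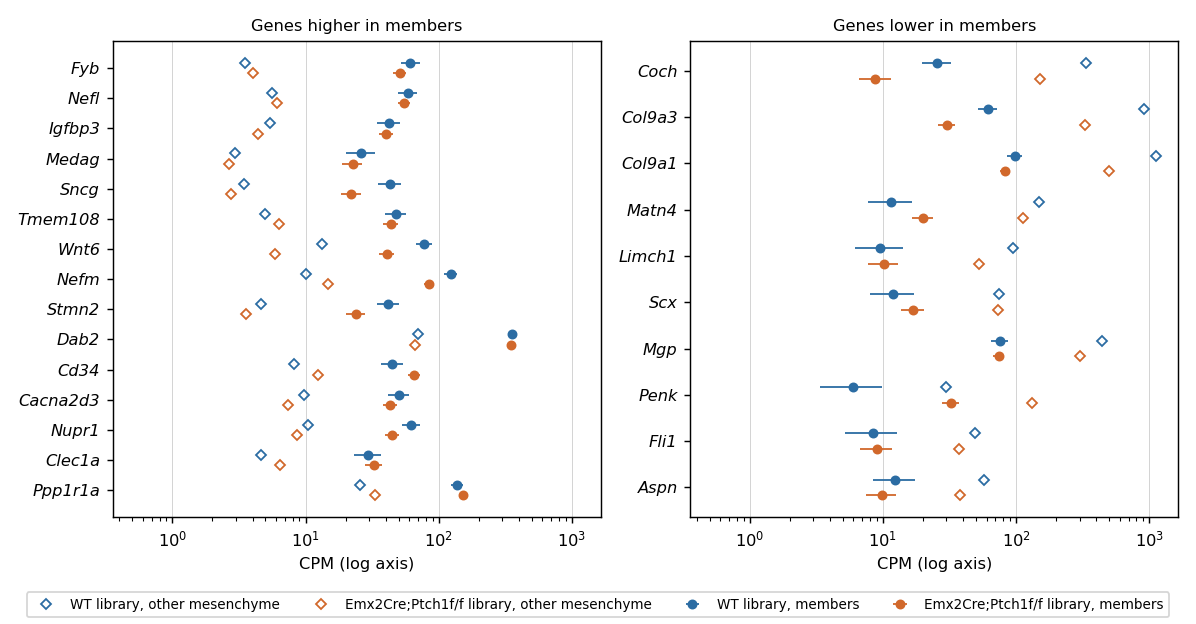
Levels in CPM (log axis) of the 15 genes named for being higher and the 10 named for being lower in members. Filled points are members with exact 95% Poisson intervals, open diamonds are other mesenchyme without an interval, blue is WT and orange Emx2Cre;Ptch1f/f. Members and other mesenchyme stand apart for each gene in both libraries, and the 4 neuronal genes (Nefl, Nefm, Sncg, Stmn2) include UMIs of members outside mesenchymal clusters.

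Cartilage genes made up the other side of the profile. Of 9 tested chondrogenic genes, 7 were 2-fold lower in members of both libraries and none was higher: Sox9, Col2a1, Col9a1, Col9a2, Col9a3, Col11a2 and Matn4. Among all tested genes, 0.585% were lower and 1.46% higher. The list's median was -2.02 in WT and -1.40 in the mutant. Sox9, the main transcription factor of cartilage, was at 109 CPM (96.3 to 122) in WT members against 330 and at 119 (111 to 128) against 276 in the mutant. Col2a1, the main cartilage collagen, was at 543 against 2199 CPM and at 617 against 1360. Col9a3, a chain of collagen IX, was at 61.4 against 909 CPM and at 30.4 against 331.

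The members were not at 0 for these genes. Col9a1, a further collagen IX chain, was at 98.0 CPM in WT and 83.1 in mutant members, while other mesenchyme stood at 1130 in WT and 497 in the mutant. Matn4, a matrilin of cartilage matrix, was at 11.6 against 148 CPM in WT and 20.1 against 112 in the mutant. The tendon factor Scx was lower as well, at 12.0 against 74.4 and 16.8 against 73.0 CPM. Mgp, an inhibitor of matrix calcification, was at 75.7 against 442 and 74.2 against 304 CPM, with 83 of the 190 WT UMIs in 1 member. Limch1, Fli1, Aspn and Penk completed the 10 named lower genes.

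Fibrocyte and matrix genes went partly the same way. Of 12 tested markers of otic fibrocytes, Otor, Coch and Car3 were lower and Cav1 was higher, beside 0.585% and 1.46% of all tested genes. Coch, which encodes the abundant cochlear matrix protein cochlin, was at 25.5 CPM (19.6 to 32.6) in WT members against 335 and at 8.79 (6.59 to 11.5) against 150 in the mutant. At 2000 UMIs it was found in 2.91% and 1.04% of members, against 28.2% and 14.2% of other mesenchyme. In the blood-cell clusters it was in 1.15% (1 of 87) of WT and 1.06% (2 of 188) of mutant barcodes. Otor was still found in most members, in 71.6% of WT and 60.6% of mutant ones at 2000 UMIs. Its shares were 86.8% and 76.0% in other mesenchyme and 11.5% and 15.4% in the blood-cell clusters. Car3, a carbonic anhydrase, was at 146 against 438 and 100.4 against 291 CPM. Cav1, the caveolar coat protein, was at 42.6 against 6.78 and 30.2 against 6.62 CPM.

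Of 33 tested matrix proteins, 5 were lower (Aspn, Fbln5, Eln, Postn and Egfl6) and none higher. For this and the next list counts, all tested genes gave 1.46% higher and 0.585% lower. Elastin, Eln, was at 21.1 against 67.6 CPM in WT and 33.4 against 113 in the mutant. Postn, a matricellular protein of dense connective tissue, was at 20.3 against 106 and 27.4 against 63.2. Of 18 collagens other than the fibrillar ones, Col15a1 and Col18a1, the basement membrane collagens with an antiangiogenic fragment, were higher and 4 were lower. Col15a1 was at 11.2 against 1.86 CPM in WT and 7.30 against 1.06 in the mutant. Of 23 peptidases, Dpp4, Adamts5 and Mmp16 were higher, with the membrane collagenase Mmp16 at 366 against 127 and 525 against 203 CPM.

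**Figure D3:**
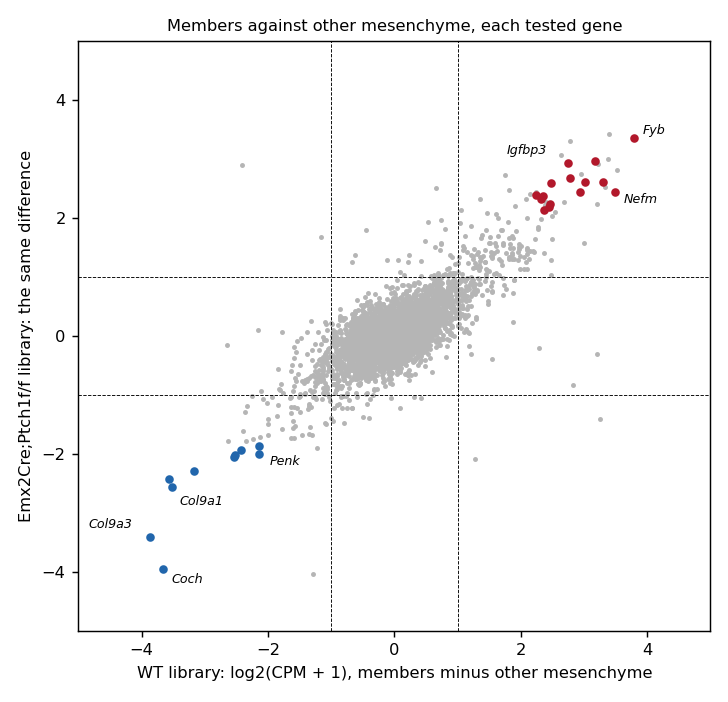
Each point is 1 of 10249 tested genes, with its log2 ratio of CPM + 1 in members over other mesenchyme in the WT library (horizontal) and in the Emx2Cre;Ptch1f/f library (vertical). Red and blue points are the genes named for high and low ratios, dashed lines mark 2-fold, and Fyb lies at the upper right with Coch and Col9a3 at the lower left.

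Leptomeningeal fibroblasts, which line the brain, also express Aldh1a2, and a list of their markers was read for that reason. Of 12 tested genes on that list, Crabp2, Wnt6 and Ranbp3l were higher and none was lower, with medians of 0.28 and 0.49. Ranbp3l, a nuclear exporter of Smad proteins, was at 62.6 against 15.3 CPM in WT and 61.2 against 20.1 in the mutant. The list's transporters Slc6a13 and Slc13a4 had 8 and 2 UMIs in WT members and 23 and 2 in mutant members, and Slc47a1 had none in either. Foxc1, a forkhead factor of meningeal and other head mesenchyme, was at 164 against 182 CPM in WT and 148 against 143 in the mutant. On the list for dural cells, 1 of 9 tested genes was higher (Crabp2) and 2 were lower (Mgp and Penk). Beside both lists, 1.46% of all tested genes were higher and 0.585% lower.

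Markers of other lineages were read over the whole list of each. The 8 macrophage markers summed to 91.3 CPM in WT and 89.1 in mutant members, and to 11.5 and 13.1 CPM without the members outside mesenchymal clusters. The 9 neuronal markers summed to 359 and 289 CPM, against 154 and 185 without them and 84.5 and 92.9 in other mesenchyme. The 7 erythroid genes summed to 1844 CPM in WT and 223 in mutant members, and to 109 and 222 without them. The 7 endothelial markers summed to 32.3 and 33.0 CPM, above the 19.3 and 23.9 of other mesenchyme. In members of mesenchymal clusters they summed to 29.4 and 33.7 CPM. The 11 epithelial markers summed to 47.8 and 47.6 CPM, beside 45.7 and 60.3 in other mesenchyme. Every macrophage and neuronal marker was detected in members of both libraries, and within mesenchymal clusters 2 macrophage markers in WT and 1 in the mutant were at 0. Left to members in mesenchymal clusters, 122 genes were higher and 64 lower, beside 150 and 60. Over 5 UMIs per 10000 from 32 other-lineage genes were found in 14.9% of WT and 29.1% of mutant members, a difference that follows the libraries and whose part in the results was not tested.

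Within the population, members of the main cluster and members elsewhere differed in level for most of the named higher genes. Aldh1a2 was at 216 CPM (191 to 242) in WT main-cluster members and at 21.7 (13.6 to 32.9) in members of other mesenchymal clusters. In the mutant the values were 129 (117 to 143) and 25.7 (20.0 to 32.6). Osr1 differed less, at 354 against 243 CPM in WT and 298 against 203 in the mutant. Fyb was at 103 CPM (86.1 to 121) against 6.92 (2.78 to 14.2) in WT and at 88.6 (78.5 to 99.6) against 4.92 (2.62 to 8.42) in the mutant. The latter intervals include the 3.52 and 4.06 CPM of other mesenchyme. Sostdc1 rested on 1 and 2 UMIs in members of other mesenchymal clusters, against 44 and 65 in the main cluster. Clec1a, Cav1, Osr2 and Wnt6 followed the same order in both libraries. Wnt6, however, was at 40.5 CPM in WT members outside the main cluster, which is above the 10.5 CPM of other mesenchyme outside it.

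Other genes ran the opposite way. Cdh6, a cell adhesion cadherin, was at 85.4 CPM (70.4 to 103) in WT main-cluster members and 422 (383 to 464) in members elsewhere, and at 90.5 and 466 in the mutant. The sialomucin Emcn was at 160 against 571 and 237 against 785 CPM. Mme was at 510 against 1024 CPM in WT and 672 against 852 in the mutant. Cdh6, Mme and Emcn are the markers by which the neighbouring mesenchyme was chosen, and members elsewhere exceeded the main cluster in all 3. Mgp, Gdf10 and Fst were also low in the main cluster, with Mgp at 5.24 against 166 and 13.1 against 119 CPM. Some genes did not follow the split. Des, an intermediate filament gene, was at 30.0 against 26.7 CPM in WT and 21.7 against 23.1 in the mutant, all above the 3.45 and 7.98 of other mesenchyme outside the main cluster. Nr2f1 was at 262 against 239 and 214 against 156 CPM.

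Main-cluster barcodes that the rule left out stood between both sets of members for 2 genes that the rule did not use. They held Fyb at 22.9 CPM in WT and 24.4 in the mutant, and Dab2 at 202 and 251. Dab2 was at 512 and 506 CPM in main-cluster members and 158 and 154 in members elsewhere. Clusters were made from these cells' own genes, so these contrasts describe the clusters and are no test.

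**Figure D4:**
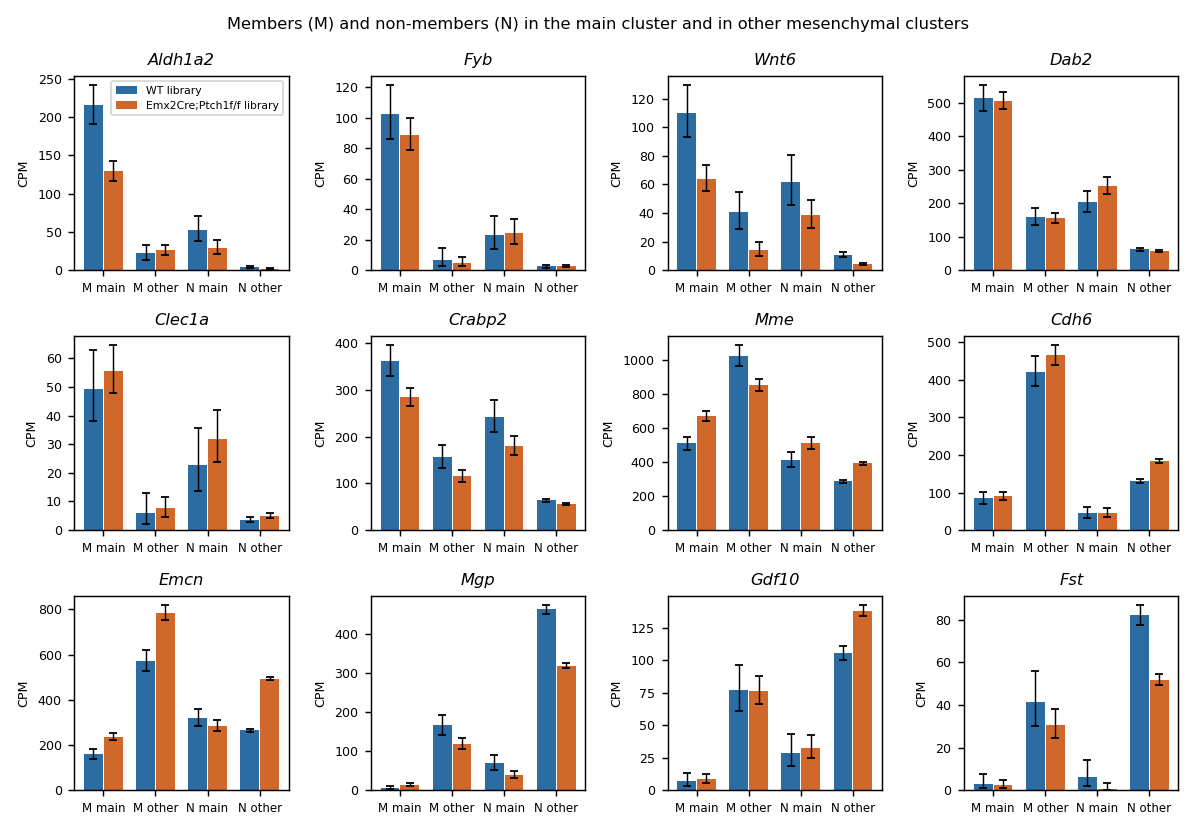
CPM of 12 genes (vertical axes from 0, each with its own scale) in members of the main cluster (M main), members of other mesenchymal clusters (M other), main-cluster non-members (N main) and non-members of other mesenchymal clusters (N other). Bars are the WT (blue) and Emx2Cre;Ptch1f/f (orange) libraries with exact 95% Poisson intervals. Aldh1a2 and Fyb are highest in M main, while Cdh6, Emcn and Mme are higher in M other than in M main.

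Populations chosen by other genes gave the nearest comparison. Barcodes with at least 2 of Mme, Cdh6 and Emcn and no Osr1 (720 WT, 1750 mutant) had Fyb at 2.67 and 3.07 CPM and Wnt6 at 20.2 and 6.54. Those with Penk and Gdf10 (104 and 422) had Crabp2 at 58.7 and 54.5 CPM, and those with Otor and Coch (862 and 841) had it at 39.2 and 33.3. Members stood above these 3 populations for Crabp2, Fyb, Wnt6 and Dab2 in both libraries. For Mme, members were closer to the first population, which Mme helped to choose, at 709 and 737 against 613 and 563 CPM. The other 2 had Mme at 284 and 351 CPM and at 48.0 and 82.8 CPM. For Col9a1, members were below all 3 populations, whose lowest values were 887 CPM in WT and 409 in the mutant. Col9a3, Matn4, Limch1, Scx and Fli1 were also lowest in members in both libraries. In the mutant, Coch was at 9.53 CPM with Penk and Gdf10, against 8.79 (6.59 to 11.5) in members. With Otor and Coch, mutant Mgp was at 66.8 against 74.2 CPM, and Aspn at 12.5 against 9.79 (7.45 to 12.6). Penk there was below members in the mutant and at 6.86 against 5.98 CPM (3.35 to 9.86) in WT. In WT, Coch with Penk and Gdf10 (45.0 CPM) and Mgp with Otor and Coch (186 CPM) were above members.

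The targeted gene and 2 Hedgehog readouts had overlapping counting intervals in members of the 2 libraries. Ptch1 was at 23.9 CPM (18.2 to 30.8, 60 UMIs) in WT and 24.2 CPM (20.5 to 28.5, 146 UMIs) in the mutant. Reads from the far end of the transcript need not cover the deleted part, so this level does not check the deletion. Gli1, a direct target of the pathway, was at 5.18 (2.76 to 8.86) and 4.81 CPM (3.22 to 6.91). Hhip, a target that binds the ligands, was at 4.38 (2.19 to 7.84) and 2.65 CPM (1.52 to 4.31), beside 10.7 and 4.30 in other mesenchyme. No Emx2 UMI was found in members of either library, and the upper interval limits were 1.47 CPM in WT and 0.612 CPM in the mutant. Members were therefore not shown to be cells in which Cre was active. Of 14 tested Hedgehog pathway genes none was 2-fold between members and other mesenchyme, and none between genotypes. Over all tested genes, 1.46% were higher and 0.585% lower in members, and 1.67% were 2-fold between genotypes. None of 14 is close to those shares and does not show that the pathway was unchanged.

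Between genotypes within members, 119 genes (1.16%) were 2-fold higher in the mutant library and 52 (0.507%) lower, 171 of 10249 (1.67%). The median of all genes was 0.07 in members and 0.04 in other mesenchyme. Genotype, library preparation, depth, mitochondrial share and software version cannot be told apart in this design. For this reason the ratio in other mesenchyme is given beside each gene, as a value and not as a test.

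Wnt6 and Dhrs3 were lower in the mutant library, in members and in other mesenchyme, though not by 2-fold in members. Wnt6 was at 78.1 CPM in WT and 40.7 in mutant members, a log2 difference of -0.93, beside -1.04 in other mesenchyme. Aldh1a2, a gene of the rule, was at 125 and 79.6 CPM, beside 6.27 and 3.58 in other mesenchyme, at 216 and 129 CPM in main-cluster members and at 21.7 and 25.7 in members of other mesenchymal clusters. Dhrs3, a retinaldehyde reductase and retinoic acid target, was at 21.9 and 11.1 CPM, with log2 differences of -0.92 in members and -1.26 in other mesenchyme. The 5 tested genes of the synthesis list, which leave out Aldh1a2, had a median log2 difference of 0.19. Rdh10, a retinol dehydrogenase, was at 17.5 CPM in WT and 25.4 in mutant members. Crabp2 was at 269 and 202 CPM, Nr2f2 at 391 and 361, and Rarb at 113 and 94.7.

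Dpp4 was the named higher gene of the fibroblast and peptidase lists that also differed between genotypes. It was at 22.7 CPM (17.2 to 29.4) in WT and 6.97 (5.02 to 9.42) in mutant members, a log2 difference of -1.57, beside -0.86 in other mesenchyme. In main-cluster members it was at 34.4 and 12.4 CPM. Coch was at 25.5 and 8.79 CPM in members and 335 and 150 in other mesenchyme. Penk, the proenkephalin precursor, was at 5.98 CPM (3.35 to 9.86) in WT and 32.2 (27.8 to 37.1) in mutant members, a difference of 2.25 beside 2.11 in other mesenchyme.

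Of the 20 genes named for their genotype difference, 9, Penk among them, had log2 differences within 0.5 of each other in members and in other mesenchyme, a limit chosen after the values were seen. Among the higher ones, Mpnd differed by 2.92 in members and 3.10 in other mesenchyme, Gm10076 by 2.0 and 2.04, and Gstp1, whose reads can be shared with the near-identical Gstp2, by 1.83 and 1.91. Among the lower ones, Wdr89 differed by -1.66 in both, Snhg3 by -2.22 and -1.83, Samd1 by -1.68 and -1.49, Hist1h4d by -1.77 and -1.54 and Trnp1 by -1.49 and -1.36. The other 11 were further apart. Pianp and Bche, the latter a cholinesterase, differed by 3.47 and 2.24 in members and 2.65 and 1.47 in other mesenchyme. Epyc, a small proteoglycan, was at 27.5 CPM in WT and 4.31 in mutant members, with -2.42 and -1.60. Among them also were Ecrg4 with -2.03 in members and -0.71 in other mesenchyme, Tenm2 with -1.52 and -0.59, Gfod2 with 1.83 and 0.71, and Milr1 with 1.42 and 0.74. The difference between populations was not tested for any of them.

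Single barcodes decided several values. For Ptcra, 120 of 121 mutant UMIs lay in 1 member, and without it the level was 0.166 CPM in place of 20.1. For 1700120C14Rik, 49 of 57 WT UMIs lay in 1 member, and without it the WT level was 3.21 CPM in place of 22.7. For Neat1, 47 of 125 mutant UMIs came from a member in the cluster led by S100a9, and the difference of 1.64 was 0.66 within mesenchymal clusters. For Gfod2, 70 of 306 mutant UMIs lay in 1 member. For Hhip, 5 of 11 WT UMIs lay in 1 member, and without it the WT level was 2.41 CPM in place of 4.38. Aspn in WT was at 12.4 CPM, and at 5.63 without 1 member, and Mgp at 75.7 and 43.0. The 4 tested erythroid genes were all 2-fold lower in mutant members, and their list's sum was the 1844 and 223 CPM given above, against 109 and 222 within mesenchymal clusters.

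**Figure D5:**
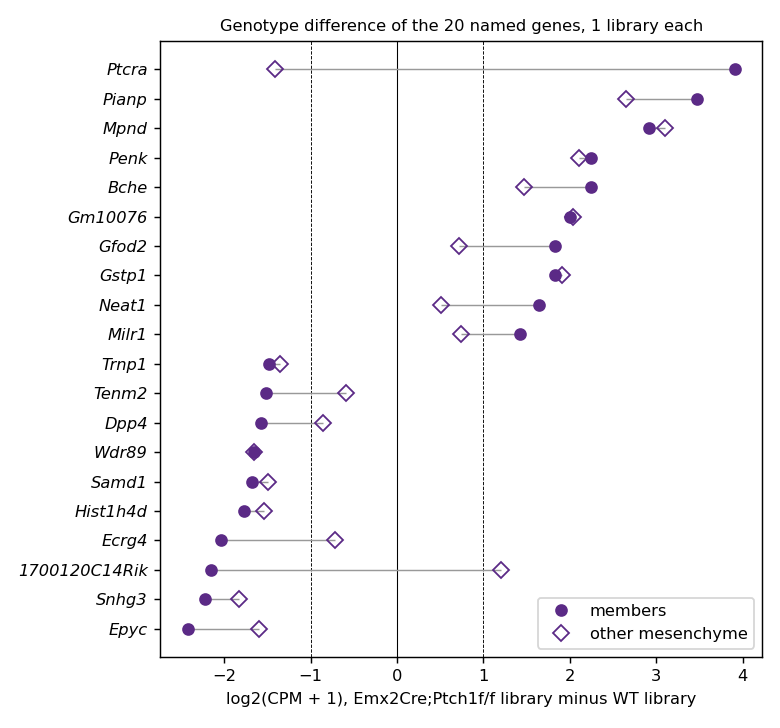
Log2 difference of CPM + 1, Emx2Cre;Ptch1f/f library minus WT library (horizontal axis), of the 20 genes named for their genotype difference, in members (filled) and other mesenchyme (open), 1 library each, with no interval drawn. Ptcra and 1700120C14Rik lie on opposite sides of 0 in the 2 populations, and for both a single barcode holds most of the members' UMIs.

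Read list by list, few genes met the 2-fold limit between genotypes in members, as did 1.67% (171 of 10249) of all tested genes. A list with none is close to that share and is no result about its pathway. None of the tested genes for retinoid uptake, retinoid receptors, retinoic acid targets, Wnt ligands and readouts, FGF signalling or Hedgehog signalling met the limit. Aldh1a3, a further retinaldehyde dehydrogenase, was the 1 of 5 retinoid synthesis genes that did, at 4.38 CPM (11 UMIs) in WT and 11.4 (69 UMIs) in mutant members, with 7.29 and 3.79 in other mesenchyme. Of 24 BMP and TGF-beta genes, Chrdl1, a BMP antagonist, alone was lower, at 15.5 and 6.14 CPM, and its log2 difference went from -1.21 to -0.61 without members outside mesenchymal clusters. Of 33 matrix proteins, 1 was higher and none lower. Of 18 collagens other than the fibrillar ones, Col8a1 and Col14a1 were lower. Col8a1 was at 18.7 CPM (47 UMIs) in WT and 3.65 CPM (22 UMIs) in mutant members, beside 47.0 and 75.4 in other mesenchyme. None of 9 chondrogenic genes met the limit.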

How the data were processed

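Single-cell libraries of 1 WT and 1 Emx2Cre;Ptch1f/f pool were analysed. The deposited values are UMI counts per gene and barcode. Per the file headers, the authors made the WT matrix with Cell Ranger 6.0.0 and the mutant matrix with Cell Ranger 5.0.1. The build is mm10, per the submitters' processing notes. Sample descriptions name kit v3.1 for WT and v3.2 for the mutant, while the protocol text gives v3.1 for both, and which holds is not settled here. Depth is given with the results.

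The members and gene lists were chosen with earlier results of these data known. UMI counts were summed over the barcodes of a population in each library and scaled to CPM, with exact Poisson 95% intervals. Shares have exact Clopper-Pearson 95% intervals, and 1 CPM was added before log2 ratios. A gene needed 50 member UMIs over both libraries, and of 32285 genes, 32158 matched GENCODE for coordinates. No replicate test was possible, so a gene is counted at 2-fold.

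Named genes were the rule's and label's genes, Ptch1, Gli1, Hhip and Emx2. Added to these were the 15 highest and 10 lowest genes against other mesenchyme (at least 20 CPM in both libraries) and the 10 highest and 10 lowest between genotypes (at least 20 CPM in 1 library, same direction under both scalings). X-linked, Y-linked, mitochondrial, ribosomal and haemoglobin genes were left out of these. From the 50 lists, genes at 20 CPM or more that were highest or lowest serve as examples. Other list genes, those under 20 CPM and the genes of the cluster contrasts were chosen after their values were seen. Some genes are not reported here.

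Clustering used scanpy 1.11.5 and igraph 0.11.9 (2000 variable genes without the rule's 8, 30 components, 15 neighbours, resolution 1), with Python 3.11.15 and scipy 1.17.1. It gave 33 clusters, 11 of them mesenchymal. A cluster was mesenchymal when that class led its markers and the next class scored under 0.5 of it, a limit set after the clusters were seen. No doublet caller was run; barcodes with over 5 UMIs per 10000 from 32 other-lineage genes were left out as an alternative. The calculation was tested on simulated counts. Alternatives of thresholds, depth, scaling, the added CPM and the low-count minimum were tried.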

Additional observations from a re-analysis of the deposited data

Results flagged for a closer look

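Ptcra, the pre-T-cell receptor alpha chain, and 1700120C14Rik had genotype differences of opposite direction in members and in other mesenchyme, each at least 2-fold; the difference between the populations was not tested. For Ptcra the log2 difference, mutant minus WT, was 3.91 in members and -1.41 in other mesenchyme. A single mutant member held 120 of the 121 UMIs. For 1700120C14Rik it was -2.16 in members and 1.21 in other mesenchyme, and a single WT member held 49 of the 57 UMIs.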

How the results depend on the processing

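No paired analysis was possible because each genotype has 1 library. The share of members was 4.27% in WT and 6.20% in the mutant by the rule. It was 1.40% and 1.66% at 2000 UMIs, 2.62% and 3.49% with at least 2 Osr1 UMIs, 1.83% and 2.22% with at least 2 companions, 7.88% and 9.53% of mesenchymal-class barcodes, and 7.57% in the mutant with the WT library's lowest depth as floor. Barcodes of the main cluster, an alternative chosen after seeing the data, made up 4.07% and 5.92%. The 150 genes higher in members became 90 with 5 CPM added, and the 60 lower ones 127 with no minimum of member UMIs. The genotype counts of 119 higher and 52 lower became 38 and 31 with 5 CPM added and 432 and 229 with no minimum. In main-cluster members alone the lower count was 33, and with median-of-ratios scaling the counts were 98 and 58. The cause of these shifts was not tested.

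Of 570 values of named genes under the alternatives, 402 were classed as the same, 156 as moved and 12 as reversed in sign. Some small differences changed sign but were classed as the same. Ptch1 between genotypes was one, at 0.02 by the rule and -0.07 with at least 2 Osr1 UMIs. The 12 reversed values follow. Sncg against other mesenchyme was -0.16 in WT main-cluster members. In the mutant Sncg was -0.24 with at least 2 Osr1 UMIs, -0.14 without members outside mesenchymal clusters, -0.36 without barcodes over the other-lineage limit and -0.22 in the main cluster. Stmn2 in WT was -0.35 without members outside mesenchymal clusters and -0.0294 in the main cluster. Between genotypes, Ptcra was -0.25 without barcodes over the other-lineage limit, and Neat1 was -0.0340 in the main cluster. 1700120C14Rik was 1.06 with at least 2 Osr1 UMIs, 0.69 with at least 2 companions and 0.27 in the main cluster. Depth limits the share of barcodes that meet the rule and genes with few UMIs.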

Other observations

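Cycle and stress genes were not described above. Of 19 tested S-phase genes none was 2-fold between members and other mesenchyme in both libraries, with medians of -0.34 in WT and -0.49 in the mutant. The limit on 3 cycle genes applied to members and other mesenchyme alike. Of 19 tested immediate early and heat shock genes, Hspb1 alone was higher in members. The muscle intermediate filament gene Des was 1 of 2 tested genes of the myogenic list and was higher. None of 10 genes for vascular ligands, 15 laminins and integrins, 17 junction genes or 14 solute carriers reached 2-fold in both libraries in either direction. Over all tested genes, 1.46% were higher and 0.585% lower, so lists of this length with none are close to those shares.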
